A study of Homo sapiens with 24 samples.

Results

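The plasminogen activator and matrix metalloproteinase systems were followed through 10 genes in AGS cells, a human gastric adenocarcinoma line, after exposure to kinase inhibitors. The genes were the rows of the deposited count table whose symbol is PLAU, PLAT, PLAUR, MMP1, MMP7, MMP10, MMP14, TIMP1, TIMP2 or TIMP3, and all 10 were found among the 23368 genes listed. Every culture was wild type by its label, grew in Ham's F12 medium with fetal calf serum and was harvested at 24 h. There were 6 groups of 4 biological replicates: control cells with no inhibitor, 0.7 µM PI103 (an inhibitor of PI3 kinase and mTOR), 0.035 µM PD0325901 (a MEK inhibitor), 0.5 µM (5Z)-7-oxozeaenol (oxozeaenol below, which inhibits TAK1), and PI103 paired with either of the others. The pairs were given at 50% of each agent's single concentration: the oxozeaenol pair is 0.35 µM PI103 plus 0.25 µM oxozeaenol, and the PD0325901 pair is 0.35 µM PI103 plus 0.0175 µM PD0325901. No vehicle is named for the control cells, and AGS is a single line in monoculture without stroma.

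Plasminogen is cleaved to the broad-spectrum protease plasmin by urokinase (PLAU) or tissue-type plasminogen activator (PLAT), and urokinase is held at the cell surface by its receptor PLAUR. Plasmin degrades fibrin and several matrix proteins and can activate latent matrix metalloproteinases, which cleave collagens, proteoglycans and other matrix components. TIMP proteins bind and block the active metalloproteinases, and the membrane-anchored enzyme MMP14 with TIMP2 forms the surface complex on which pro-MMP2 is activated. In gastric and other carcinomas these genes are studied in relation to invasion, and transcription of several of them is known to respond to ERK signalling through AP-1 and ETS factors. Only mRNA was measured here, not protease activity.

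The libraries held 38.1 to 84.2 M gene counts. Levels are counts per M of the TMM-scaled library (CPM). All 10 epithelial and gastric marker genes, EPCAM, CDH1 and the keratins among them, lay over 1 CPM in every group, and their summed level ran from 4890 to 8170 CPM over the 24 libraries. The summed level of the 8 immune markers was 40.1 to 50.4 CPM in control and 189 to 471 CPM in the treated libraries, nearly all of it LYZ, which gastric epithelium also makes. PTPRC, which defines leukocytes, had at most 7 reads, but the macrophage genes CD68 and CSF1R had reads in every library (0.617 to 3.5 and 0.384 to 4.89 CPM). Both rose with PD0325901 (log2 changes 1.49 and 1.32, edgeR adjusted p = 8.52e-05 and 2.79e-05) and with the PD0325901 pair. With PI103 CSF1R fell (-1.275, adjusted p = 0.000179) and CD68 was not called (0.385, adjusted p = 0.287). Neither was called with oxozeaenol or with the oxozeaenol pair. The 10 fibroblast markers summed to 61.1 to 83.4 CPM in control, 99.3 to 112 CPM with PI103 and 37.6 to 46.6 CPM with oxozeaenol, with 2 genes over 1 CPM in each group. These were PDGFRA (28.3 to 77.4 CPM over the libraries) and COL1A1 (7.93 to 34.2 CPM), which rose with PI103 (1.15) and fell with oxozeaenol (-0.77). COL3A1 reached 88 reads in 1 library, and DCN and COL1A2 at most 1 read in any. The part of these marker sums in the results below was not tested. In bulk RNA, fewer cells of a type and less RNA per cell cannot be told apart.

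Of the 10 genes, 6 passed the filter on low counts and entered the test across all 13947 genes: PLAT, PLAUR, MMP1, MMP14, TIMP1 and TIMP2. MMP1 passed only through the control libraries, where it had up to 62 reads against at most 20 in any treated library, so its fall was a condition of its being tested at all and it is left out of the counts against control. PLAU, MMP7, MMP10 and TIMP3 did not pass and are given as reads. Against control, 5 of the 5 other genes changed with PI103 (adjusted p under 0.05), all upward, where 51.4% of all tested genes changed, 26.2% upward and 25.2% downward. With PD0325901 5 of 5 changed, 4 upward (58.6% of all genes, 28.7% upward and 29.9% downward). With oxozeaenol 3 of 5 changed, 2 upward (51.9% of all genes, 25.7% upward and 26.1% downward). The oxozeaenol pair changed 4 of 5, all upward (55.6% of all genes, 27.7% upward and 27.9% downward), and the PD0325901 pair 5 of 5, 4 upward (64.8% of all genes, 32.2% upward and 32.6% downward). Since more than 50% of all genes changed with each treatment, these counts say little about the set, and the direction and size of each gene's change carry the description below.

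Expressed per kilobase of exon, the scale on which different genes can be compared, control cells held mostly TIMP1 (67.5 reads per kilobase and M reads, RPKM) and MMP14 (47.5 RPKM). TIMP2 followed with 7.86 RPKM and PLAUR with 2.05 RPKM, while PLAT (0.367 RPKM) and MMP1 (0.356 RPKM) were low. TIMP3 stood at 0.0619 RPKM, MMP7 at 0.0251 RPKM, MMP10 at 0.0203 RPKM and PLAU at 0.00137 RPKM. On this scale the first 2 places were exchanged in both groups with PD0325901. MMP14 was at 109 and TIMP1 at 81.8 RPKM with PD0325901 alone, and MMP14 at 125 and TIMP1 at 103 RPKM with the pair. Which of these 2 genes comes first depends on the lengths used, 4.46 kb for MMP14 and 1.54 kb for TIMP1. In control cells MMP14, TIMP1 and TIMP2 thus stood above the 3 secreted metalloproteinases and both plasminogen activators.

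Among the activators, urokinase mRNA was at the limit of detection. PLAU (GRCh38 chr10:73909177-73917497, plus strand) had 1 read over the 4 control libraries, 5 with PI103, 2 with PD0325901, 1 with oxozeaenol, 0 with the oxozeaenol pair, and 1 with the PD0325901 pair. No library held more than 2 PLAU reads, and 31.1% of its exon length overlaps the antisense gene C10orf55. A difference in PLAU was not detectable at this depth.

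PLAT (GRCh38 chr8:42175233-42207724, minus strand), the activator that binds fibrin, rose with PI103 and fell with PD0325901 and with oxozeaenol. Its level was 2.46, 2.01, 2.53 and 2.72 CPM in the control libraries, replicates 1 to 4, and 7.32, 5.01, 5.52 and 5.38 CPM with PI103. PD0325901 gave 0.544, 0.532, 1.18 and 0.899 CPM, and oxozeaenol 1.62, 1.38, 1.62 and 1.09 CPM. All PI103 libraries lay above, and all PD0325901 and oxozeaenol libraries below, the control libraries. The log2 change was 1.25 (SE 0.25, adjusted p = 0.000158, edgeR quasi-likelihood test here and below) with PI103, -1.61 (SE 0.273, adjusted p = 1.6e-05) with PD0325901 and -0.78 (SE 0.263, adjusted p = 0.0156) with oxozeaenol, whose call was lost without oxozeaenol replicate 4 (adjusted p = 0.0554). PLAT was the only one of the 6 tested genes that a single agent raised and another lowered.

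In the pairs PLAT took a different position with each partner. The oxozeaenol pair gave 3.36, 2.81, 2.22 and 2.23 CPM, a range that overlaps control (log2 change 0.13, 95% interval -0.39 to 0.65, adjusted p = 0.682) and lies below PI103 alone (log2 difference -1.12, adjusted p = 0.00199). Without replicate 1 of that pair the change against control was -0.0053 and likewise not called. The PD0325901 pair gave 1.29, 0.353, 1.13 and 0.99 CPM, all below control (-1.36, SE 0.268, adjusted p = 8.66e-05). That pair differed from PI103 alone by -2.61 (adjusted p = 3.23e-08) and was not distinguished from PD0325901 alone (0.25, 95% interval -0.33 to 0.84). So PLAT mRNA with the PD0325901 pair lay near the level with PD0325901, although PI103 alone had raised it 2.38-fold.

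PLAUR (GRCh38 chr19:43646095-43670547, minus strand), which concentrates urokinase on the membrane and also signals with integrins, rose with every treatment except oxozeaenol alone. Control libraries had 11.6, 8.2, 8.49 and 8.27 CPM, PI103 18.2, 18.3, 16.2 and 15.4 CPM, and PD0325901 19.8, 28.7, 21.6 and 18.1 CPM. Oxozeaenol gave 11.3, 9.45, 11 and 10.2 CPM, which overlaps control through control replicate 1. The pairs gave 18.5, 14.0, 16.1 and 14.8 CPM with oxozeaenol and 32.1, 35.1, 23.3 and 24.9 CPM with PD0325901, the highest group. Log2 changes against control were 0.90 (SE 0.144, adjusted p = 1.14e-05) with PI103, 1.27 (SE 0.145, adjusted p = 4.1e-08) with PD0325901 and 1.66 (SE 0.146, adjusted p = 2.93e-10) with both of these. With oxozeaenol alone the change was 0.20 (95% interval -0.10 to 0.50, adjusted p = 0.268), and with the oxozeaenol pair 0.79 (adjusted p = 4.64e-05).

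**Figure D1:**
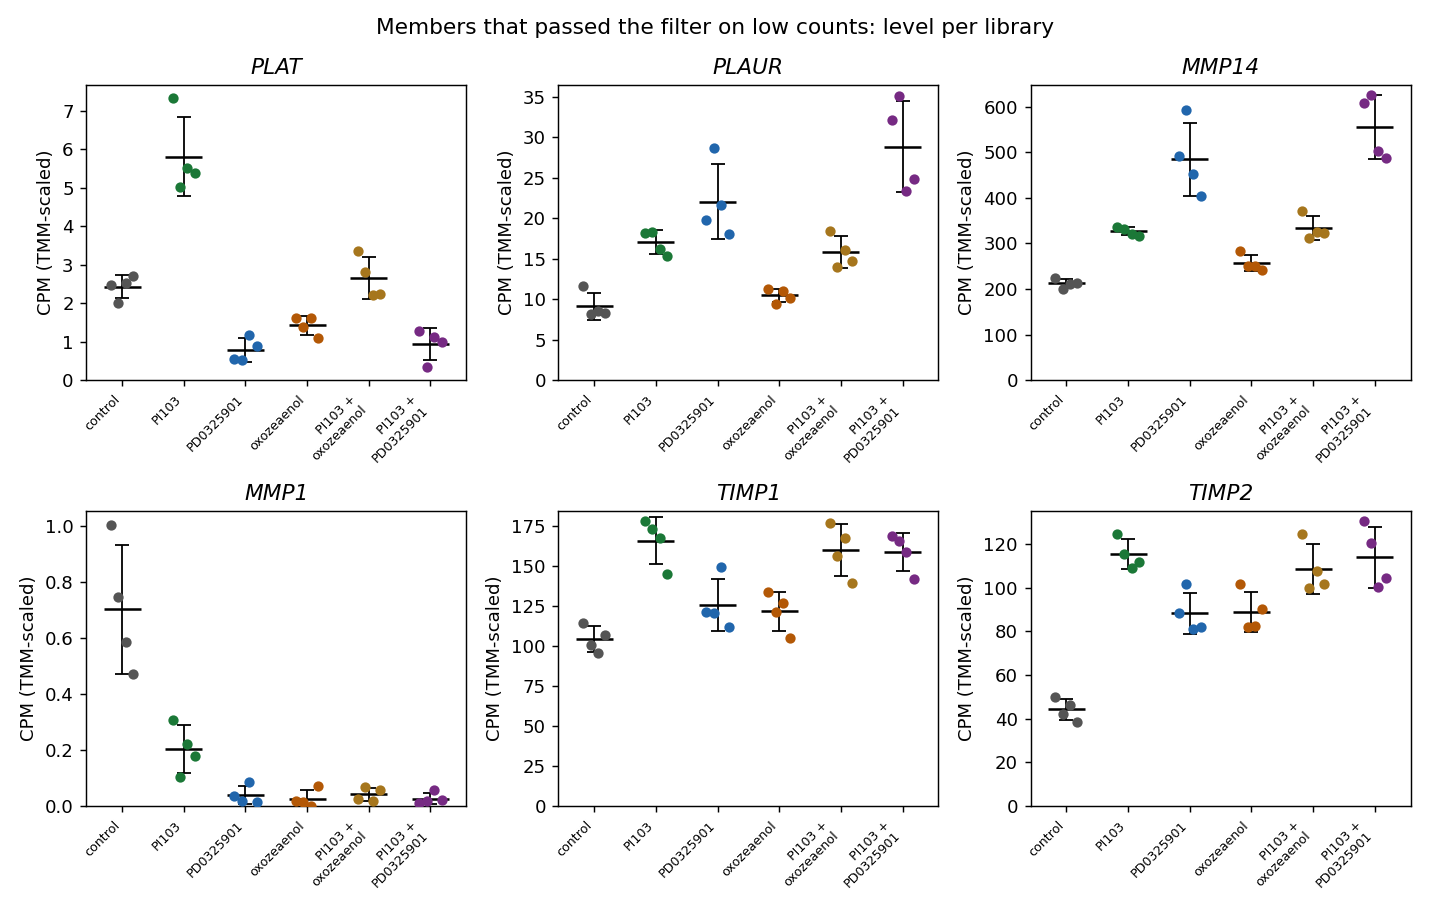
Level in CPM (vertical axes, linear, from 0) of the 6 genes that passed the filter on low counts, 1 point per library in each of the 6 groups; horizontal lines are group means and bars 1 SD (n = 4). PLAT is highest with PI103 (mean 5.81 CPM) and lowest with PD0325901 (0.788 CPM), while PLAUR and MMP14 are highest with the PD0325901 pair (28.8 and 556 CPM), and MMP1 is highest in control (0.702 CPM).

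Among the metalloproteinases, MMP14 rose with each of the 5 treatments. MMP14 (GRCh38 chr14:22836557-22849027, plus strand), which cleaves collagen at the cell surface and activates pro-MMP2, was the most highly counted of the 10 genes. It stood at 225, 199, 211 and 214 CPM in control and at 335, 332, 321 and 317 CPM with PI103. PD0325901 gave 492, 592, 452 and 403 CPM and oxozeaenol 283, 251, 250 and 242 CPM. No treated library of these 3 groups reached down into the control range. The oxozeaenol pair gave 371, 312, 326 and 323 CPM, close to PI103 alone, and the PD0325901 pair gave 608, 625, 504 and 488 CPM.

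The log2 change of MMP14 was 0.62 (SE 0.101, adjusted p = 1.26e-05) with PI103, 1.19 (SE 0.102, adjusted p = 2.76e-10) with PD0325901 and 0.28 (SE 0.1, adjusted p = 0.024) with oxozeaenol. The oxozeaenol change was the smallest, and its call was lost without oxozeaenol replicate 1, control replicate 2 or control replicate 3 (adjusted p 0.0503 to 0.0981). The pairs gave 0.65 (adjusted p = 5.46e-06) with oxozeaenol and 1.39 (SE 0.102, adjusted p = 1.25e-11) with PD0325901. The PD0325901 group had the widest spread, 485 ± 80.2 CPM (SD, n = 4) against 212 ± 10.4 CPM in control.

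MMP1 (GRCh38 chr11:102789920-102798160, minus strand), the interstitial collagenase, was low in control and lower in every treatment. Control libraries held 62, 40, 48 and 36 reads, or 1.00, 0.745, 0.586 and 0.472 CPM. With PI103 there were 20, 6, 13 and 11 reads. With PD0325901 there were 2, 1, 6 and 1 reads, with oxozeaenol 1, 1, 0 and 4, with the oxozeaenol pair 2, 4, 1 and 3, and with the PD0325901 pair 1, 1, 4 and 1. The PI103 libraries were intermediate and, in CPM, overlapped neither control nor the other treatments.

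Because the filter admitted MMP1 only through its control libraries, it was tested without any filter, over 20169 genes. There the log2 change was -1.79 with PI103 (adjusted p = 0.000817), -4.07 with PD0325901 (adjusted p = 5.49e-08) and -4.63 with oxozeaenol (adjusted p = 3.6e-08). It was -4.07 with the oxozeaenol pair (adjusted p = 6.24e-08) and -4.61 with the PD0325901 pair (adjusted p = 8.9e-09). The last 4 groups rest on 6 to 10 reads each and could not be ordered among themselves. Of the exon length of MMP1, 7.6% overlaps the antisense pseudogene WTAPP1, and whether the counting used strand is not given in the sources used here.

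MMP7 (matrilysin, GRCh38 chr11:102520508-102530753) and MMP10 (stromelysin-2, GRCh38 chr11:102770503-102780628) lie on the minus strand in the same metalloproteinase cluster as MMP1, within a span of 278 kb, and MMP10 is 9291 bp from MMP1. MMP7 had 3, 1, 5 and 8 reads in the control libraries and 17 in all, against 25 with PI103, 21 with PD0325901, 5 with oxozeaenol, 7 with the oxozeaenol pair, and 35 with the PD0325901 pair. The MMP7 libraries of every treatment overlapped control, and no comparison with control reached an exact permutation p (two-sided) under 0.114. MMP10 had 3, 3, 1 and 2 reads in control and 5, 3, 1, 0 and 2 in total over the 5 treatments in the order just given. With the oxozeaenol pair all 4 libraries were at 0. A floor of 3 reads over that group lay 2.94-fold below the control mean, without the counting error of the control reads. The exact permutation p was 0.0286 (unadjusted). Such a p is the smallest that 4 against 4 can give, and 20 of these comparisons were made, over 4 genes and 5 treatments.

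**Figure D2:**
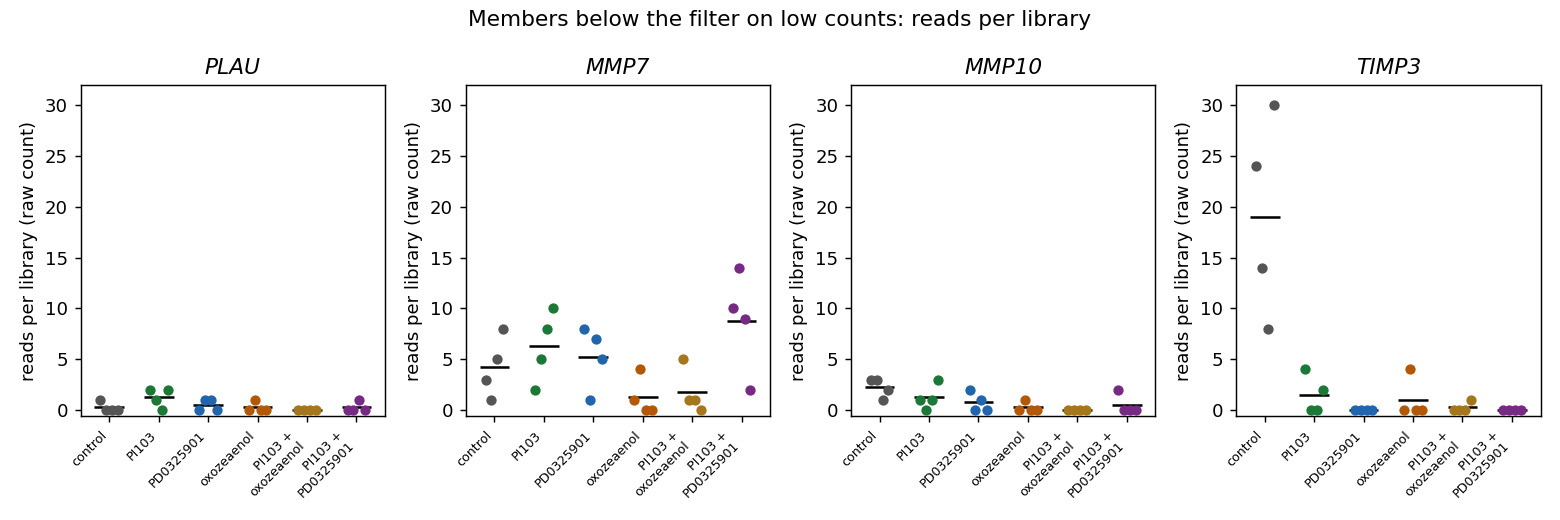
Raw reads per library (vertical axes, linear) of the 4 genes below the filter on low counts, in the 6 groups; horizontal lines are group means. TIMP3 has 8 to 30 reads in each control library and at most 4 in any treated one, whereas PLAU, MMP7 and MMP10 stay at or below 14 reads everywhere.

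Among the inhibitors, TIMP1 and TIMP2 rose and TIMP3 fell. TIMP1 (GRCh38 chrX:47582313-47586789, plus strand, within SYN1 on the other strand), which inhibits most soluble metalloproteinases and binds MMP14 poorly, had 114, 101, 95.3 and 107 CPM in control. PI103 gave 178, 173, 167 and 145 CPM, the oxozeaenol pair 176, 156, 167 and 139 CPM, and the PD0325901 pair 169, 165, 159 and 142 CPM. These 3 groups all contained PI103 and lay wholly above control. PD0325901 alone gave 121, 120, 149 and 111 CPM and oxozeaenol alone 134, 121, 127 and 105 CPM, both overlapping control.

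PI103 alone changed TIMP1 by 0.67 on the log2 scale (SE 0.0992, adjusted p = 3.76e-06). The oxozeaenol pair changed it by 0.62 (adjusted p = 9.5e-06) and the PD0325901 pair by 0.60 (adjusted p = 7.74e-06). With PD0325901 the change was 0.27 (SE 0.0989, adjusted p = 0.0224), a call lost without control replicate 2, control replicate 3 or PD0325901 replicate 3 (adjusted p 0.0549 to 0.132). With oxozeaenol it was 0.22 (95% interval 0.02 to 0.43, adjusted p = 0.0625), and with the replicate number, which the labels give as the batch, as a block it was 0.21 (adjusted p = 0.0215). PI103 alone exceeded PD0325901 alone by 0.40 (adjusted p = 0.00184) and oxozeaenol alone by 0.44 (adjusted p = 0.000772) on the log2 scale.

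TIMP2 (GRCh38 chr17:78852977-78925387, minus strand), which inhibits MMP14 and takes part in pro-MMP2 activation, rose with all 5 treatments. The control libraries had 50, 42.4, 46.3 and 38.6 CPM. PI103 gave 125, 116, 109 and 112 CPM, PD0325901 88.5, 102, 81.3 and 82.0 CPM, and oxozeaenol 102, 82.0, 82.3 and 90.1 CPM. The lowest treated library, 81.3 CPM, was above the highest control. The pairs gave 125, 100.1, 108 and 102 CPM with oxozeaenol and 131, 120.4, 100.5 and 104 CPM with PD0325901.

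The log2 change of TIMP2 was 1.38 (SE 0.104, adjusted p = 5.62e-11) with PI103, 1.00 (SE 0.103, adjusted p = 7.91e-09) with PD0325901 and 1.01 (SE 0.103, adjusted p = 1.21e-08) with oxozeaenol. It was 1.29 (adjusted p = 1.27e-10) and 1.36 (adjusted p = 2.17e-11) in the pairs with oxozeaenol and with PD0325901. The single agents PD0325901 and oxozeaenol were not distinguished (difference 0.01, 95% interval -0.20 to 0.22), although they differed in PLAUR and MMP14. Of TIMP2's exon length, 3.5% overlaps CEP295NL on the same strand and 6.5% an antisense gene.

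TIMP3 (GRCh38 chr22:32801701-32863043, plus strand, on the other strand from SYN3, which contains it), the TIMP that stays bound to the extracellular matrix, had 24, 14, 8 and 30 reads in control. With PI103 there were 4, 0, 0 and 2 reads, with oxozeaenol 0, 4, 0 and 0, and with the oxozeaenol pair 0, 0, 0 and 1. PD0325901, alone or with PI103, left no read in any of 8 libraries. No treated library reached the lowest control. A floor of 3 reads over the group lay 23.4-fold below the control mean of TIMP3 with PD0325901 and 24.5-fold below it with the PD0325901 pair. The counting error of the control reads is not included. Each of the 5 comparisons gave that smallest exact permutation p, 0.0286 (two-sided, unadjusted). Tested with edgeR without a filter, over 20169 genes, TIMP3 was lower in all 5 treatments (adjusted p from 6.33e-06 to 0.000618). MMP10 was lower there only with the oxozeaenol pair (adjusted p = 0.0137), and neither PLAU nor MMP7 was called.

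**Figure D3:**
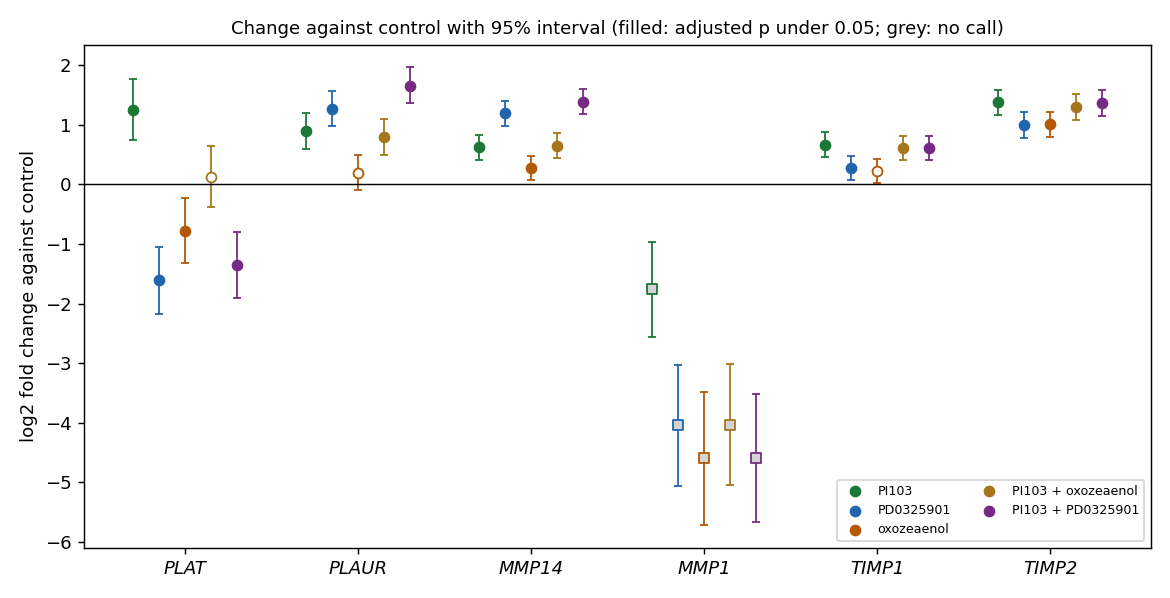
Log2 fold change against control (vertical axis) of the 6 tested genes with each of the 5 treatments; points are edgeR estimates, bars 95% intervals, and open circles mark an adjusted p of 0.05 or more; grey squares show MMP1, which passed the filter only through control and is not called here. MMP14, TIMP1 and TIMP2 lie above 0 in all 5 treatments and MMP1 below 0, while PLAT lies at 1.25 with PI103 and at -1.61 with PD0325901.

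PLAUR and MMP14 followed nearly the same order over the groups. Both were lowest in control, next with oxozeaenol, intermediate with PI103 and with the oxozeaenol pair, higher with PD0325901 and highest with the PD0325901 pair. Over the 24 libraries the Pearson correlation of their log2 levels was 0.972, which mostly reflects the 6 groups; with each library taken as its deviation from its group mean it was 0.858. Among 10039 other genes with a mean of at least 5 CPM, MMP14 was the closest to PLAUR. The closest to MMP14 were the nucleoside transporter SLC29A3 (0.988) and the tetraspanin TSPAN15 (0.972). TIMP2 was closest to KANK2 (0.972) and the syndecan SDC3 (0.967), and TIMP1 to RUFY1 and the tetraspanin CD151 (0.941 each). These correlations describe libraries that share group and depth and are given without a test.

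**Figure D4:**
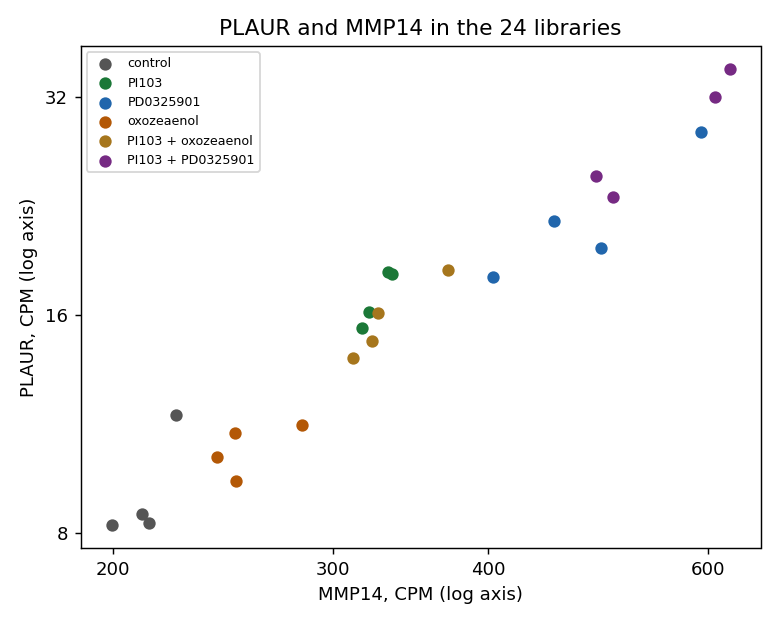
PLAUR against MMP14 in each of the 24 libraries, both in CPM on log axes, coloured by group. The control libraries sit at the lower left (199 to 225 CPM of MMP14) and the libraries with the PD0325901 pair at the upper right (488 to 625 CPM).

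The regions before the start sites are shown because AP-1 and ETS elements are known features of promoters in this gene family, and because PLAUR and MMP14 moved together while TIMP3 was lost. RefSeq promoter windows (GRCh38.p14, 250 bases before the start) were matched for 7 of the 10 genes. PLAT, MMP1 and TIMP2 were not searched, so nothing is said here of motifs in their promoters. Both strands were searched for AP-1 (TGANTCA), for 2 ETS forms (AGGAAG and CGGAAG), TEAD (GGAATG), a GC box (GGGCGG) and TATAAA, none of which overlap in the sequences printed. The ETS form AGGAAG matched PLAU, PLAUR, MMP7 and TIMP1, and the form CGGAAG matched PLAU, where 28.7% and 16.8% of promoters hold them. TATAAA matched MMP7 and MMP10 (11.1% of promoters), and TEAD matched no gene. A GC box matched PLAU and TIMP1, besides the genes given below. AP-1 matched PLAUR, MMP7 and MMP10, and 6.6% of 27305 promoters of the same length hold it. The 3 matches are printed on the gene's strand with 11 bases on each side and the AP-1 letters in capitals, 186 bases before the start for PLAUR, inside the first exon of a longer annotated transcript, and 67 bases before the start for MMP7 and MMP10.
PLAUR, chr19:43670338-43670366, minus strand: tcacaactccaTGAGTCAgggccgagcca
MMP7, chr11:102530797-102530825, minus strand: aaacactcaaaTGAGTCAcctatttccac
MMP10, chr11:102780678-102780706, minus strand: aaacacatgcaTGAATCAtactgttggtg

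MMP14 and TIMP3 held no AP-1 match in their windows, only GC boxes, which 42.3% of the promoters hold, and their windows are printed up to the annotated gene with the GC boxes in capitals. MMP14 has 1 GC box, 66 bases before the start, and TIMP3 has 5.
MMP14, chr14:22836335-22836556, plus strand: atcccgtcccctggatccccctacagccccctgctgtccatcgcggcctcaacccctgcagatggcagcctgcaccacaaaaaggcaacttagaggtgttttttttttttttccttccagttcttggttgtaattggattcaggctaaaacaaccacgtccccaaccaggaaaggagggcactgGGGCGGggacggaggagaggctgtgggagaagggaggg
TIMP3, chr22:32801455-32801700, plus strand: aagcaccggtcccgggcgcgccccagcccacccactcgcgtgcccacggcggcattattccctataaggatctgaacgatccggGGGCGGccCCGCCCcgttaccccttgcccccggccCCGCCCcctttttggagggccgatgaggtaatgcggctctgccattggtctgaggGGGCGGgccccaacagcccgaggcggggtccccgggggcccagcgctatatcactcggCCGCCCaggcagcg
Over the full 250 bases the share of G and C was 56.8% for MMP14 and 72.4% for TIMP3. A match describes letters only and is no evidence of binding.

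Ratios of reads within a library, which no scaling between libraries touches, show how enzyme and inhibitor moved against each other; they were chosen after the levels were seen and are given without a test. MMP14 reads per TIMP2 read were 4.49, 4.71, 4.56 and 5.54 in control and 2.69, 2.87, 2.94 and 2.83 with PI103. Oxozeaenol gave 2.79, 3.06, 3.04 and 2.69, and the oxozeaenol pair 2.98, 3.11, 3.03 and 3.18. All 12 of these treated libraries lay below control. PD0325901 gave 5.57, 5.83, 5.55 and 4.91 and the PD0325901 pair 4.65, 5.19, 5.01 and 4.67, both overlapping control. The groups without PD0325901 gained more TIMP2 than MMP14, while in the groups with PD0325901 both rose by similar factors.

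MMP14 reads per TIMP1 read separated the same groups in another way. The mean was 2.04 ± 0.114 (SD, n = 4) in control, 1.98 ± 0.139 with PI103, 2.12 ± 0.143 with oxozeaenol and 2.09 ± 0.164 with the oxozeaenol pair, all overlapping control. It was 3.91 ± 0.796 with PD0325901 and 3.5 ± 0.258 with the PD0325901 pair, where all 8 libraries, 3.03 to 4.92, lay above control. PLAUR reads per PLAT read were 3.8 ± 0.751 in control, 2.99 ± 0.49 with PI103, 7.48 ± 1.23 with oxozeaenol and 6.08 ± 1.03 with the oxozeaenol pair. They reached 32.2 ± 16.6 with PD0325901 and 42.5 ± 38 with the PD0325901 pair, the second of these resting partly on replicate 2 at 99.4, with the other libraries at 20.7 to 25.1.

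**Figure D5:**
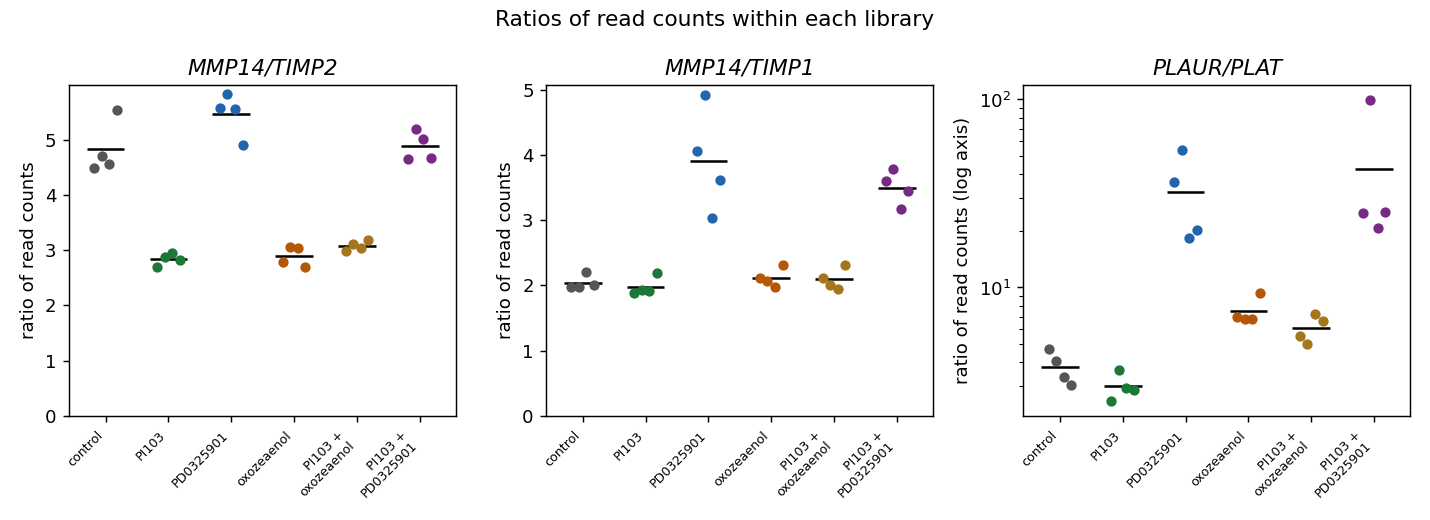
Ratio of read counts within each library (vertical axes; linear for MMP14 to TIMP2 and MMP14 to TIMP1, log for PLAUR to PLAT), 1 point per library in the 6 groups with lines at group means. MMP14 to TIMP2 is near 3 with PI103, oxozeaenol and their pair and near 5 in control and both PD0325901 groups, and PLAUR to PLAT exceeds 18 only in the PD0325901 groups.

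The single agents were set against each other. PI103 exceeded oxozeaenol in all 6 tested genes (43.1% of all tested genes differed in this comparison, with 20.6% of all genes higher with PI103), by 2.03 on the log2 scale in PLAT, 2.84 in MMP1, 0.70 in PLAUR and 0.34 to 0.44 in MMP14, TIMP1 and TIMP2. PI103 alone also differed from PD0325901 alone in 6 of 6 (44.5% of all genes): PLAT, MMP1, TIMP1 and TIMP2 were higher with PI103, and PLAUR and MMP14 were higher with PD0325901, by 0.37 and 0.57. Oxozeaenol and PD0325901 differed in 3 of 6 (28.5% of all genes). PLAUR and MMP14 were lower with oxozeaenol, by 1.07 and 0.92, and PLAT was higher by 0.83, with the libraries of the 2 groups overlapping for PLAT.

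The pairs were then compared with each of their agents at full concentration. The oxozeaenol pair differed from PI103 alone in PLAT and MMP1, 2 of 6 (18.3% of all genes), both lower in the pair (8.92% of all genes were lower). The MMP1 difference rests on 10 reads in the pair and was not called with only these 2 groups in the fit. It was above oxozeaenol alone in PLAT, PLAUR, MMP14 and TIMP1, 4 of 6 (14.9% of all genes, 7.59% higher), by 0.91, 0.60, 0.37 and 0.39 on the log2 scale. Without replicate 1 of the pair only PLAUR was still called there, and with the replicate block TIMP2 was called as well (0.29, adjusted p = 0.0116). The PD0325901 pair differed from PI103 alone in 4 of 6 (38.7% of all genes), with PLAUR and MMP14 higher by 0.76 and 0.77 and log2 differences of -2.61 in PLAT and -2.83 in MMP1. It was above PD0325901 alone in TIMP1 (0.34, adjusted p = 0.0194) and TIMP2 (0.37, adjusted p = 0.0137), 2 of 6 (18.1% of all genes, 8.06% higher). With the replicate block PLAUR was called as well (0.38, adjusted p = 0.0258). The count of 2 fell to 0 without replicate 1 of the pair and to 1 without PD0325901 replicate 1, 3 or 4, and it was 0 with only these 2 groups in the fit.

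Because the pairs contained 50% of each agent, the mean of both single-agent effects on the log2 scale is a reference for agents acting in proportion to concentration. Of the 6 tested genes, 0 differed from this mean in the oxozeaenol pair (3.98% of all genes, edgeR); at an unadjusted p under 0.05 it was MMP14 alone (difference 0.20, 95% interval 0.03 to 0.38). The PD0325901 pair departed in 3 of 6 (22% of all genes). PLAUR was above the mean by 0.57 (SE 0.119, adjusted p = 0.0014) and MMP14 by 0.48 (SE 0.0853, adjusted p = 0.000291), and PLAT lay below it (log2 difference -1.18, SE 0.245, adjusted p = 0.00136). MMP1 lay below it as well without passing the threshold (-1.68, 95% interval -2.96 to -0.41, adjusted p = 0.0519; with the replicate block -1.70, adjusted p = 0.0476), and for TIMP1 and TIMP2 the differences were 0.14 and 0.18. The 2 pairs differed from each other in PLAUR, MMP14 and PLAT, 3 of 6 (29.9% of all genes).

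When the 6 groups were ordered by level for each of the 5 genes that pass the filter without control, 9 of the 25 neighbouring pairs of groups differed. Over those neighbour comparisons whose share is given above, 14.9% to 58.6% of all tested genes differed. Neighbours were picked by these same levels, so the count describes the order only. For TIMP2 only the lowest step, from control to PD0325901, was called, although groups farther apart in the order differed, such as PI103 and PD0325901 (0.39, adjusted p = 0.00312). For TIMP1 the only called step lay between the PD0325901 pair and PD0325901 alone, with the means of the groups with PI103 above it and the others below. The libraries of these 2 groups overlapped. That call was lost without replicate 1 of the pair, without PD0325901 replicate 1 or 4, and with only these 2 groups in the fit. MMP14 had 3 called steps and PLAUR 2, and neither separated the PD0325901 pair from PD0325901 alone (adjusted p = 0.172 and 0.0557). PLAT had 2 called steps, on either side of a plateau formed by control and the oxozeaenol pair. For MMP1 the step from PI103 to the next treatment, the oxozeaenol pair, was called (2.27, adjusted p = 0.00452).

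Other genes of plasminogen activation gave a mixed picture. The counts for this and the lists that follow stand beside 25.7% to 32.2% of all tested genes higher and 25.2% to 32.6% lower than control over the 5 treatments. Unlike the 10 genes, the genes of these lists were not checked for passing the filter only through groups where they are high. Such genes are not left out of the counts, which describe the lists only. Of 17 such genes 10 were tested, and against control 2 rose and 2 fell with PI103, 3 and 4 with PD0325901, 3 and 2 with oxozeaenol, 3 and 3 with the oxozeaenol pair, and 4 and 4 with the PD0325901 pair. Plasminogen itself (PLG) had at most 1 read in a library. SERPINB2, an inhibitor of urokinase, had the largest fall, from 10.9 ± 3.66 CPM (SD, n = 4) in control to 0.866 ± 0.353 with PI103 and to between 0.122 and 0.2 CPM in the other treatments (log2 change -3.65 to -6.40), although 19.9% of its exon length overlaps SERPINB10 on the same strand.

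The plasminogen receptor subunit S100A10 rose from 1550 ± 39.9 CPM in control to 4140 ± 542 CPM with the PD0325901 pair (log2 change 1.42, adjusted p = 4.7e-12). Its mean lay between 2190 and 3760 CPM in the other treatments. LRP1, the endocytic receptor that clears complexes of activators with their inhibitors, rose from 15 ± 2.46 to 64.6 ± 9.14 CPM (2.10, adjusted p = 6.13e-11) and stood between 33.9 and 55.8 CPM in the other treatments. F12, which encodes coagulation factor XII, fell from 2.89 ± 0.643 to 1.6 ± 0.11 CPM (-0.85). With PI103, with PD0325901 and with both pairs, then, PLAUR rose beside S100A10 and LRP1, while SERPINB2 fell. With oxozeaenol alone S100A10, LRP1 and SERPINB2 changed in the same directions, and PLAUR was not called.

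Of 19 other metalloproteinases 7 were tested, and 3 rose with PI103, 5 with PD0325901, 2 with oxozeaenol, 4 with the oxozeaenol pair and 5 with the PD0325901 pair, with 1 fall, that of MMP24 with oxozeaenol (54.9 ± 1.71 to 46.8 ± 2.54 CPM). MMP11, stromelysin-3, rose most, from 0.36 ± 0.131 to 3.46 ± 0.836 CPM with the PD0325901 pair (log2 change 3.25, adjusted p = 2.2e-10), and the membrane-type enzyme MMP15 rose from 33.9 ± 2.63 to 59.1 ± 4.19 CPM with the oxozeaenol pair (0.80). MMP2, the enzyme that MMP14 activates, was chosen after its values were seen. It stood at 0.162 ± 0.0837 CPM in control and 0.838 ± 0.503 CPM with the PD0325901 pair (2.39, adjusted p = 0.000478), far below MMP14. The median log2 change of the 7 genes ran from 0.30 with oxozeaenol to 1.22 with PD0325901, beside medians between -0.02 and 0.02 over all 13947 genes. Both ends of that range are the values of MMP23B, which had a mean of 0.103 CPM and at most 18 reads. MMP23B was not called in any treatment (edgeR adjusted p = 0.743 with oxozeaenol and 0.0941 with PD0325901). MMP2, MMP19 and MMP25 also had means under 1 CPM, so these medians say little.

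Among 11 regulators of metalloproteinases, 9 tested, 7 rose and 0 fell with PI103, and 2 rose and 2 fell with PD0325901 and with oxozeaenol. In the pairs 4 rose and 1 fell with oxozeaenol as the partner, and 5 rose and 2 fell with PD0325901 as the partner. FURIN, a convertase that removes the propeptide of MMP14, fell from 62.7 ± 5.53 to 35.3 ± 2.83 CPM with oxozeaenol (log2 change -0.83, adjusted p = 3.38e-09), while the related PCSK6 rose from 56.6 ± 3.42 to 123 ± 11.2 CPM with the oxozeaenol pair (1.12) and PCSK7 from 34.9 ± 1.54 to 57.8 ± 4.14 CPM with PD0325901 (0.73). CD44, a hyaluronan receptor that binds MMP14 at the membrane, fell from 27.2 ± 4.3 to 13.2 ± 2.18 CPM with PD0325901 (-1.05, adjusted p = 2.2e-07). MMP14 was highest in the groups where CD44 was lowest: CD44 stood at 18.4 ± 2.7 CPM with the PD0325901 pair. That order did not hold with PI103, which raised CD44 to 34.2 ± 3.14 CPM (log2 change 0.33, adjusted p = 0.0357) and raised MMP14 as well.

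Other surface and lysosomal proteases moved too. Of 16 membrane serine proteases, kallikreins and their inhibitors, all tested, 9 to 13 rose and 2 or 3 fell in each treatment, beside the shares of all genes given above. TMPRSS2 rose from 2.98 ± 0.352 to 47 ± 16 CPM with PD0325901 (log2 change 3.98, adjusted p = 1.64e-12) and hepsin (HPN) from 0.984 ± 0.242 to 7.54 ± 0.584 CPM with the PD0325901 pair (2.93), whereas TMPRSS4 fell from 41 ± 1.46 to 10.8 ± 3.11 CPM with PD0325901 (-1.92) and TMPRSS3 from 4.84 ± 0.87 to 2.2 ± 0.449 CPM with PI103 (-1.14). Of 10 tested ADAM and ADAMTS genes 4 to 6 rose and 1 to 3 fell in each treatment. Among the rises were those of ADAMTS9 and ADAMTS10, with means of 0.0756 and 0.122 CPM and at most 14 and 22 reads. ADAMTS13 rose from 0.317 ± 0.196 to 2.26 ± 0.457 CPM with the PD0325901 pair (2.84), and ADAM8 from 1.49 ± 0.339 to 4.89 ± 0.514 CPM with PD0325901 (1.71). The sheddase ADAM17 fell from 86.6 ± 3.65 to 55.1 ± 3.96 CPM with PI103 (-0.65) and ADAM9 from 698 ± 86.6 to 491 ± 58.5 CPM with oxozeaenol (-0.51). Of 12 tested cathepsins and cystatins 8 to 10 rose and 1 or 2 fell, and with the PD0325901 pair cathepsin K (CTSK) rose from 1.26 ± 0.341 to 4.77 ± 0.291 CPM (1.93) and cathepsin C (CTSC) fell from 121 ± 15.2 to 79.9 ± 4.26 CPM (-0.60). Cathepsin D (CTSD) rose from 198 ± 13.2 to 544 ± 93.3 CPM in that pair (1.46), with 41.7% of its exon length shared with another gene on the same strand.

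Integrin and matrix genes, the partners and substrates of these proteases, went both ways. Of 14 tested, 8 rose and 2 fell with PI103, against 1 and 6 with PD0325901 and 1 and 9 with oxozeaenol, 2 and 5 in the oxozeaenol pair and 3 and 5 in the PD0325901 pair. ITGA2, a collagen-binding integrin subunit, fell from 363 ± 17.7 to 34.2 ± 7.12 CPM with PD0325901 (log2 change -3.41, adjusted p = 1.91e-12), and ITGA5, of the fibronectin receptor that works with PLAUR, fell from 83.1 ± 5.31 to 24.1 ± 2.21 CPM with the oxozeaenol pair (-1.78). The basement membrane collagen COL4A1 rose from 7.1 ± 1.38 to 19.9 ± 1.72 CPM with PI103 (1.49), and the laminin chain LAMA3 from 78.6 ± 8.95 to 179 ± 18.2 CPM with the PD0325901 pair (1.18).

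Of the 12 AP-1 and ETS factor genes, all tested, 10 fell and 0 rose in each treatment but PI103, where 8 fell and ELK3 rose (11.8 ± 2.33 to 20.2 ± 3.06 CPM). ETV5 fell from 128 ± 3.75 to 5.94 ± 3.62 CPM with the PD0325901 pair (log2 change -4.42). FOSL1, an AP-1 subunit, stood at 55.4 CPM in control, 17.3 with PI103, 3.24 with PD0325901, 9.29 with oxozeaenol, and 11.6 and 3.3 CPM in the pairs with oxozeaenol and with PD0325901. DUSP6, a feedback phosphatase of ERK, went from 132 CPM in control to 49.0, 3.6, 22.5, 35.0 and 3.9 CPM in the same order, and ETV4 from 68.0 to 80.1, 1.12, 12.8, 28.9 and 0.869 CPM. PLAUR and MMP14 were highest, and TIMP3 at 0 reads, in the 2 groups where these 3 genes were lowest. That order did not hold between oxozeaenol and PI103. Oxozeaenol had less DUSP6, FOSL1 and ETV4 than PI103, yet also less PLAUR (10.5 against 17 CPM) and MMP14 (257 against 326 CPM). A link between these levels was not tested. MMP1 was not distinguished between oxozeaenol (0.0254 CPM) and PD0325901 (0.039 CPM; log2 difference -0.55, 95% interval -2.18 to 1.08).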

How the data were processed

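RNA was sequenced from 24 AGS cultures, with mRNA libraries made by a stranded kit per the labels' protocols. The deposited table holds the authors' whole-number read counts per gene symbol. The build is GRCh38, per the submitters' processing notes; the aligner, the counting program and the annotation are not given in the sources used here. Per library, 4.24% to 8.57% of reads had no feature, 1.57% to 2.01% were ambiguous and 4.64% to 6.06% were not uniquely aligned; these tallies were left out. Replicates of a group differed beyond sampling noise.

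The 13947 genes passing filterByExpr (99.989% of counts) were normalised by TMM. The model was edgeR 4.0.16 in R 4.3.3 (quasi-likelihood, 1 coefficient per group, 24 libraries), with two-sided p-values adjusted by Benjamini-Hochberg over all tested genes. SE is the absolute log2 change over the root of F. The genes and lists were chosen with earlier results of these data known. Besides the 10 genes, genes named are, per list, the 2 largest rises and falls among called genes with a mean of at least 1 CPM and no overlap with control; DUSP6, FOSL1 and ETV4 are named as ERK readouts. Some genes that these rules name are not reported here. Positions and exon lengths are from GENCODE 29, promoters from RefSeq (GRCh38.p14).

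Replicate numbers are the labels' batch and pair the samples: deviations from group means correlated at 0.12 on average over 60 same-numbered pairs and -0.0394 over 180 others. Exact tests used 4 libraries a group, and intervals and floors cover counting error or replicate spread only. The test was checked on simulated counts. Alternatives were DESeq2 1.42.0, other scalings and filters, the replicate block and leaving out each library.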

Additional observations from a re-analysis of the deposited data

Results flagged for a closer look

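Looking at 54 groups of 4 libraries, 6 held a library far from the other 3 by Dixon's criterion, where chance gives about 1 in 20. PLAUR in control replicate 1 was 11.6 CPM, with the others at 8.2 to 8.49. MMP1 with PI103 and PD0325901 was 0.0579 CPM in replicate 3, 4 reads, with the others at 0.0125 to 0.0202 CPM. The ratio of MMP14 to TIMP1 reads was 2.21 in control replicate 3 (others 1.97 to 2.0) and 2.19 in PI103 replicate 4 (others 1.89 to 1.93). The ratio of PLAUR to PLAT reads was 9.32 in oxozeaenol replicate 4 (others 6.81 to 6.98) and 99.4 in replicate 2 of PI103 with PD0325901 (others 20.7 to 25.1).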

How the results depend on the processing

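The counts of called genes, MMP1 included, and the fold changes against control were recomputed with size factors in the style of DESeq2, upper-quartile scaling, no filter, a filter of at least 1 CPM in 4 libraries, the DESeq2 test, the replicate block, only the compared groups in the fit, and each library left out. Of 105 counts, 102 stayed within 1.5 times. The count for the oxozeaenol pair against PI103 fell to 1 with the 1 CPM filter, which no longer tests MMP1, and to 1 with only the compared groups; that for the PD0325901 pair against PD0325901 fell to 0 with only the compared groups, which have fewer samples. Of 205 fold changes of the tested genes, 201 kept their call and all 205 their direction. TIMP1 with oxozeaenol passed under upper-quartile scaling (0.28, adjusted p = 0.0152), the 1 CPM filter (0.23, adjusted p = 0.0442) and the replicate block, and MMP14 with oxozeaenol did not pass without a filter (0.24, adjusted p = 0.0719).

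With the replicate block, the only call against control that changed among the tested genes of the set was TIMP1 with oxozeaenol, which was gained (0.21, adjusted p = 0.0215). Besides the calls gained that are given with their results, PLAT became lower in the PD0325901 pair than with oxozeaenol (-0.63, adjusted p = 0.0429). The block changed no other call.

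Leaving out 1 library kept 123 of 128 counts within 1.5 times and 231 of 240 fold changes on their side of the threshold. The count ranged from 1 to 5 for the oxozeaenol pair against oxozeaenol and from 0 to 3 for the PD0325901 pair against PD0325901. PLAT in the oxozeaenol pair against control, not called, ranged from -0.0053 to 0.21. TIMP1 with oxozeaenol passed without control replicate 1 or oxozeaenol replicate 4. Depth limits PLAU, MMP7, MMP10, TIMP3 and MMP1 outside control, where a library holds few or no reads.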
